A study of Mus musculus with 6 samples.

Results

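Chemokines are small secreted proteins that guide the movement of white blood cells, and their receptors are G protein-coupled receptors on the cells that respond. CC and CXC chemokines differ in the spacing of their first conserved cysteines, and the receptors are named after the class they bind. In muscle, resident macrophages, fibroblasts, endothelial cells and infiltrating leukocytes are known sources, and Ccr2 with its ligands is known for bringing monocytes into injured muscle. SOCS proteins, for which the series is titled, restrain cytokine receptor signalling through JAK kinases and STAT factors.

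The chemokine and chemokine receptor genes were taken as all genes with a probe set of a single platform symbol that reads Ccl, Cxcl, Ccr or Cxcr followed by a digit. The rule found 48 genes among the 19938 genes tested, 32 of them ligands (19 CC and 13 CXC) and 16 of them receptors (10 CC and 6 CXC). Where a gene had several probe sets, that with the highest mean over all arrays stood for it, which concerned Ccl19 with 5 probe sets and Ccl25 with 2.

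RNA of mouse skeletal muscle was hybridised to 6 Affymetrix MoGene arrays. The labels call 3 of the mice transgenic (TG) and 3 wild type (WT), and each array has a subject name of its own. The labels name no strain, age, sex, treatment, muscle or promoter, and they do not say what the transgene carries. Values are deposited log2 expression levels, a difference is TG minus WT on that scale, and a "±" is the SD over 3 arrays. Array medians lay between 5.98 and 6.04, and correlations between arrays across genes were 0.9943 to 0.9960. The 12 skeletal myofibre markers, such as creatine kinase and fast myosin genes, averaged 13.25 to 13.26 on the TG arrays and 13.27 to 13.31 on the WT arrays. Socs3 itself was at 7.12, 7.25 and 7.07 in TG and 7.43, 7.41 and 7.37 in WT, a difference of -0.26 (SE 0.07; limma, adjusted p = 0.660). Its second probe set was at 6.15, 6.12 and 6.15 in TG and 6.23, 6.40 and 6.46 in WT, a difference of -0.22, and the labels do not say whether either probe set reads the transgene. In whole muscle, fewer cells of a type and less RNA per cell cannot be told apart.

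The comparison asked how the transcripts of this signalling system differed between TG and WT muscle. No chemokine or receptor gene passed an adjusted p of 0.05 over all genes tested (limma, 0 of 48; background 0.00502% of genes), and their smallest adjusted p was 0.676. The differences ran from -0.36 for Ccl8, named as a monocyte chemoattractant protein (MCP), to 0.67 for Ccl9, a macrophage chemokine. Their median was -0.002, against -0.016 over all genes, with 23 genes above 0 and 25 below. Over all genes tested, 8728 lay above 0 and 11210 below. With an unadjusted p under 0.05, 5 genes had higher values in TG, namely Cxcr6, Ccl7, Ccr2, Ccl17 and Ccl9, or 10.4% where the background was 1.96%. Lower values were found for 2, Ccl8 and Cxcr3, or 4.17% where the background was 4.79%. Both directions together gave 7 genes, or 14.6%, against 6.75% of all genes. Of these 7, Ccl9 alone was kept by a filter at the median level of all genes, described below.

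For 4 of the 48 genes the groups were apart, with no TG value inside the WT range or the reverse, which is 8.33% where the background was 12.3%. Cxcr6 and Ccl7 lay higher on every TG array, where the background of such genes was 4.52%, and Ccl8 and Cxcr3 lay lower, where it was 7.76%. An absolute difference over 0.5 was measured for Ccl9 and Ccr2, 4.17% of the 48 genes against 0.476% of all genes. Both of these had overlapping groups.

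Single arrays moved these counts. Without TG array 1, 4 genes had an unadjusted p under 0.05, or 8.33% against 5.29% of all genes, and 2 of them, Cxcr6 and Cxcr3, were among the 7 named above, while Ccl20 and Ccr4 were not. Without WT array 1 there were 2, Cxcr6 and Ccl8, or 4.17% against 7.57% of all genes, so that the share no longer lay above the background. The count of higher genes was 2 without TG array 1 (background 1.76%), 1 without WT array 1 (2.06%), 3 without WT array 2 (1.79%) and 7 without TG array 3 (2.35%). The count of lower genes was 1 without TG array 2 (background 4.66%) or WT array 1 (5.52%). Cxcr6 was among the higher genes without each array in turn. The count of genes with groups apart went from 4 to between 8 and 12 when any 1 array was left out, or 16.7% to 25%, and the share over all genes went to between 20.6% and 25.1%, since fewer arrays are then compared.

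**Figure D1:**
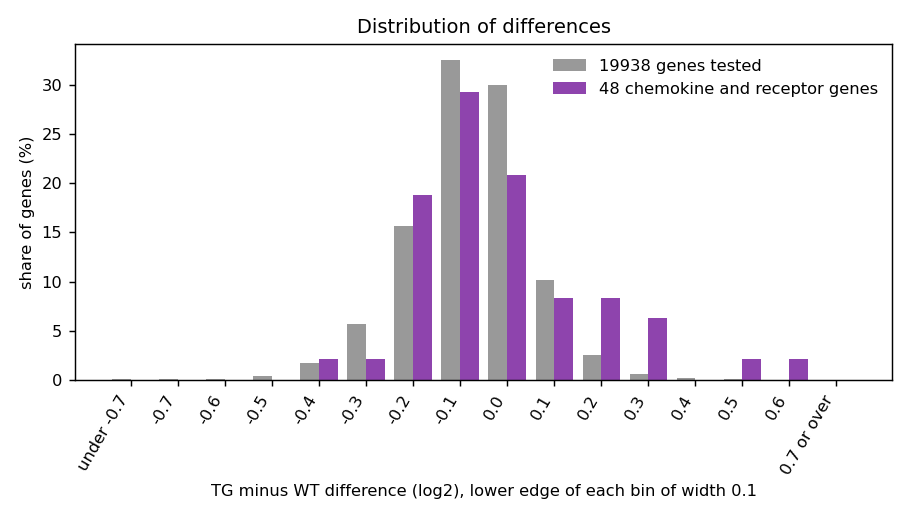
Share of genes (in percent, vertical axis) in each bin of TG minus WT difference on the log2 scale (horizontal axis), for all 19938 genes tested and for the 48 chemokine and receptor genes. Most chemokine and receptor genes lie in the same bins as most genes, and Ccl9 and Ccr2 lie above 0.5.

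The MCP group holds the chemokines named as monocyte chemoattractant proteins, which are encoded close together, and its 4 measured members did not move together. Ccl7, a Ccr2 ligand, was at 5.95, 5.85 and 5.74 on the TG arrays and 5.42, 5.71 and 5.56 on the WT arrays. Every TG value lay above every WT value. Its difference was 0.28 (SE 0.10, 95% interval 0.06 to 0.51; limma, adjusted p = 0.710), or 1.22-fold. Ccl8, whose mouse protein is known to act through Ccr8, stood the other way, at 3.91, 4.25 and 4.22 in TG and 4.38, 4.70 and 4.39 in WT. All TG values of Ccl8 were below all WT values, a difference of -0.36 (SE 0.12, 95% interval -0.65 to -0.08; limma, adjusted p = 0.710), or 1.29-fold lower. Ccl2, the principal attractant of Ccr2-bearing monocytes, was nearly flat over the arrays, at 5.09, 5.08 and 4.97 in TG and 5.01, 5.04 and 5.14 in WT. Its difference of -0.02 had a 95% interval of -0.19 to 0.15. Ccl12, a further Ccr2 ligand of mice, was spread widely in both groups, at 4.48, 3.94 and 4.39 in TG and 4.27, 4.05 and 3.53 in WT. The low value of WT array 3 carried much of its difference of 0.32 (95% interval -0.17 to 0.81), which was 0.11 without that array and 0.48 without TG array 2 or WT array 1.

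The eotaxins attract eosinophils through Ccr3, and none of the 3 measured reached an unadjusted p under 0.05. Ccl11, or eotaxin, was at 8.76, 8.70 and 8.68 in TG and 8.78, 8.67 and 8.45 in WT, a difference of 0.08 that was -0.01 without WT array 3. Ccl24 was at 6.02, 5.98 and 5.94 in TG and 6.02, 6.02 and 6.28 in WT, a difference of -0.13 (95% interval -0.33 to 0.08) that was -0.04 without WT array 3. Ccl26 differed by 0.03. The groups overlapped for all 3 genes.

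The MIP-1 group holds macrophage inflammatory chemokines, and it contained the widest array-to-array swings among the CC ligands. Ccl9, made by macrophages and osteoclasts and acting on Ccr1, was at 7.69, 7.53 and 6.56 in TG and 6.43, 6.81 and 6.53 in WT. TG arrays 1 and 2 were high, while TG array 3 lay inside the WT range. The difference was 0.67 (SE 0.28, 95% interval 0.03 to 1.32; limma, adjusted p = 0.738), or 1.59-fold. It was 0.46 without TG array 1 and 1.02 without TG array 3. Ccl6, the neighbouring gene, also known as C10, was at 7.97, 7.80 and 6.69 in TG and 6.74, 7.65 and 6.91 in WT. TG arrays 1 and 2 were again the highest, and WT array 2 stood close to them, so that the difference of 0.39 had a 95% interval of -0.46 to 1.23. It was 0.14 without TG array 1 and 0.79 without TG array 3. The 3 others of this group, Ccl3, Ccl4 and Ccl5, differed by 0.08, -0.09 and 0.01. Ccl5, the T cell attractant RANTES, had the narrowest range of all 48 genes, 0.11 over the 6 arrays.

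Because Ccl9 and Ccl6 were high on the same TG arrays, the 250 bases before their RefSeq transcription starts (assembly GRCm38.p6) are shown, 5′ to 3′, with capitals marking matches on either strand to the AP-1 motif TGANTCA and the kappaB consensus. In Ccl9 the AP-1 match starts 53 bases and the kappaB match 35 bases before the start, and the window of Ccl6 holds no match to these motifs.
Ccl9 (chr11:83578637-83578886, minus strand): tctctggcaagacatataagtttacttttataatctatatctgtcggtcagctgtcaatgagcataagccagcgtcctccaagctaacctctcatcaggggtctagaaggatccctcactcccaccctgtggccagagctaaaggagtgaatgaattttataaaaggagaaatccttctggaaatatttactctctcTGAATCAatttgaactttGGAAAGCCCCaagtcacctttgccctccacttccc
Ccl6 (chr11:83593088-83593337, minus strand): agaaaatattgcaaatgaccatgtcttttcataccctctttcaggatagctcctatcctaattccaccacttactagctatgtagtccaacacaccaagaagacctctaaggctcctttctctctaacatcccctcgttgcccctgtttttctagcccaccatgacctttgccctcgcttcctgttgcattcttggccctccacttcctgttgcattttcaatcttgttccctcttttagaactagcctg

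Marker transcripts of macrophages, bone, liver and fat are given beside Ccl9. Cd68, a lysosomal protein of macrophages, was at 7.21, 7.49 and 6.34 in TG and 6.47, 6.49 and 6.54 in WT, with TG arrays 1 and 2 high and TG array 3 lowest of all. The osteoclast enzymes Acp5 and Ctsk were at 7.41, 6.76 and 6.51 and at 7.67, 7.33 and 6.94 on the TG arrays. On the WT arrays they were at 6.18, 6.07 and 6.35 and at 6.75, 6.59 and 6.88, so that both lay higher on every TG array. The 15 macrophage and monocyte markers measured averaged 6.75 to 7.03 on the TG arrays and 6.57 to 6.94 on the WT arrays. Of these markers, 12 had differences above 0 and 3 below, with a median of 0.082. Itgam, a monocyte integrin chain, was at 5.76, 5.61 and 5.53 in TG and 5.14, 5.17 and 4.88 in WT, higher on every TG array. Itgam and Cd68 were the 2 markers of the macrophage list with a difference over 0.5. Others of that list, such as Adgre1, Csf1r and C1qa, differed by 0.06, 0.05 and -0.09. The 7 bone and osteoclast markers averaged 6.69, 6.15 and 5.77 on TG arrays 1, 2 and 3 and 5.61 to 5.87 in WT, with 6 differences above 0 and a median of 0.570. Hepatocyte transcripts also varied between arrays, averaging 6.83, 8.34 and 5.66 on TG arrays 1, 2 and 3 and 7.21 to 8.00 in WT. The adipocyte markers had 7 of 7 differences above 0, and their averages were apart, at 7.26 to 7.41 on the TG arrays and 7.07 to 7.14 on the WT arrays. Taken singly, 2 of the 7, Adipoq and Retn, had groups apart (background of higher genes 4.52%), and the others overlapped. Adipoq, the fat cell hormone adiponectin, was at 5.99, 5.74 and 6.04 in TG and 5.25, 5.34 and 5.28 in WT, a difference of 0.64 (limma, adjusted p = 0.299). Unlike Ccl9, Adipoq was high on all TG arrays. The part of these cells in the values of Ccl9, Ccl6 and Ccr2 was not tested.

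**Figure D2:**
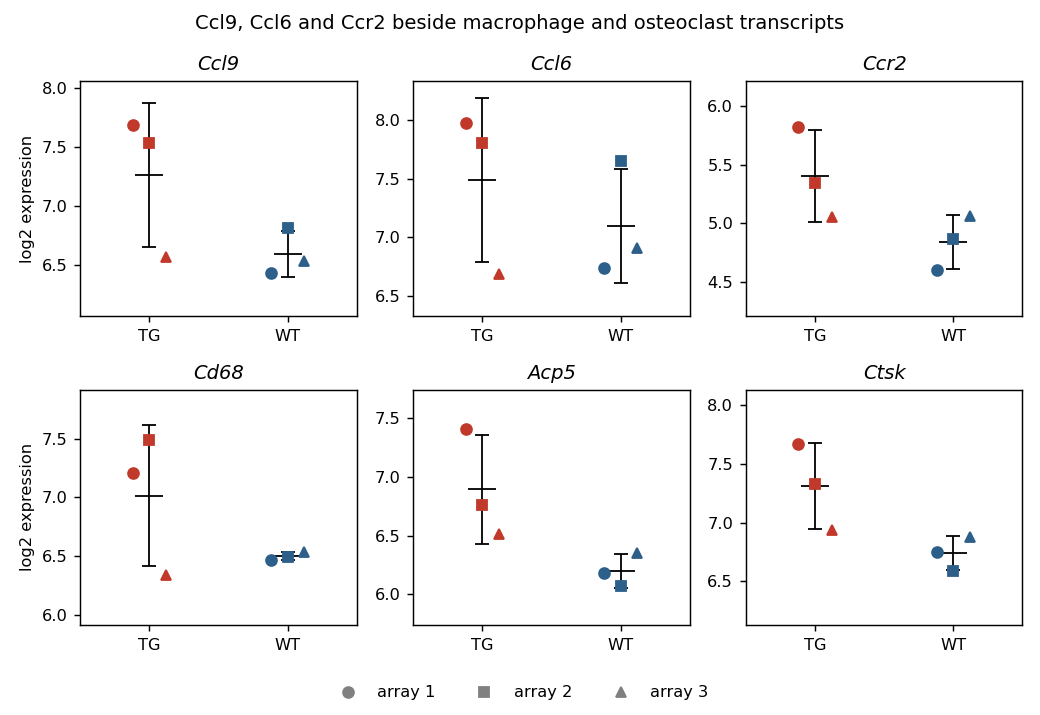
Log2 expression (vertical axis) of Ccl9, Ccl6, Ccr2, the macrophage gene Cd68 and the osteoclast genes Acp5 and Ctsk on each array, with the mean and SD over 3 arrays of TG and of WT; every panel spans 2 log2 units, and array numbers name samples and pair none. TG array 3 lies at or below the WT range for Ccl6 and Cd68 and inside it for Ccl9 and Ccr2.

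The homeostatic and dual CC ligands direct lymphocytes and dendritic cells in tissues and lymph nodes, and 4 of the 7 measured had differences above 0. Ccl17, a Ccr4 ligand made by dendritic cells, was at 5.55, 5.73 and 5.44 in TG and 5.33, 5.27 and 5.44 in WT. TG array 3 and WT array 3 met at the edge of the groups, and the difference was 0.23 (SE 0.09, 95% interval 0.01 to 0.45; limma, adjusted p = 0.738), or 0.15 without TG array 2. Ccl22, the other Ccr4 ligand, was at 4.40, 4.61 and 4.81 in TG and 4.41, 4.16 and 4.83 in WT, and its difference of 0.14 was -0.01 without WT array 2 and 0.32 without WT array 3. Ccl20, which attracts cells bearing Ccr6, was at 5.04, 5.33 and 5.22 in TG and 5.06, 4.96 and 5.12 in WT, with TG array 1 inside the WT range. Its difference of 0.15 (95% interval -0.06 to 0.36) was 0.08 without TG array 2 and 0.23 without TG array 1. Ccl19, a lymph node ligand of Ccr7, was at 6.24, 6.41 and 6.56 in TG and 6.32, 6.39 and 6.38 in WT, a difference of 0.04. Its other 4 probe sets differed by -0.09 to 0.04, and that at -0.09 was lower on every TG array. The 5 probe sets of Ccl19 held 4 distinct rows of values, so they are not 5 separate measurements. Ccl25, known from thymus and gut, was at 6.72, 6.96 and 6.39 in TG and 6.85, 6.47 and 6.78 in WT, a difference of -0.01, and its second probe set differed by -0.04. Ccl28 and Ccl1 differed by -0.12 and -0.01.

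The 13 CXC ligands had differences from -0.17 to 0.11, with 4 above 0, a median of -0.049 and none at an unadjusted p under 0.05. Among the 5 ELR ligands, which attract neutrophils through Cxcr2, Cxcl1 was at 6.55, 6.69 and 6.50 in TG and 6.62, 6.75 and 6.72 in WT, a difference of -0.11 (95% interval -0.29 to 0.07) that ran from -0.17 without TG array 2 to -0.07 without TG array 3. The other 4, Cxcl2, Cxcl3, Cxcl5 and Cxcl15, differed by -0.05 to 0.08. The 10 neutrophil markers measured had a median difference of 0.020 and averaged 4.66 to 4.74 in TG and 4.63 to 4.73 in WT.

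The 3 interferon-inducible ligands, which attract activated T cells through Cxcr3, had differences just below 0. Cxcl9 was at 5.60, 5.05 and 5.49 in TG and 5.55, 5.37 and 5.41 in WT, a difference of -0.07 that was 0.10 without TG array 2. Cxcl10 had the widest range of the 48 genes, 1.31, with 5.76, 5.65 and 5.56 in TG and 5.58, 5.19 and 6.50 in WT. The high value of WT array 3 and the low value of WT array 2 lay on either side of all TG values. Its difference of -0.10 (95% interval -0.78 to 0.58) was 0.27 without WT array 3 and -0.38 without WT array 2. Cxcl11 was at 5.67, 5.67 and 5.89 in TG and 5.88, 5.86 and 5.75 in WT, a difference of -0.09 that ran from -0.16 without TG array 3 to -0.05 without TG array 1. Since Cxcl10 varied the most, its promoter window is shown in the same way, with matches to the ISRE motif (GAAA, any 2 bases, GAAA), which interferon-activated STAT complexes bind, to the kappaB consensus and to the AP-1 motif in capitals.
Cxcl10 (chr5:92348890-92349139, minus strand): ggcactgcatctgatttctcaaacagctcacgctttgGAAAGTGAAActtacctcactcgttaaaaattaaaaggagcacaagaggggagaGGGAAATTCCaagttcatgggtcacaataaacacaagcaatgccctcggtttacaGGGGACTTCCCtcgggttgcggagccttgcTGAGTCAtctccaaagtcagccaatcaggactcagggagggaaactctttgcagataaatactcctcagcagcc
The ISRE match of Cxcl10 starts 213 bases before the start, its kappaB matches at 159, 104 and 103 bases (the last pair overlap) and its AP-1 match at 74 bases. It was the single promoter of the 34 matched genes that held all 3 of these motifs.

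The other CXC ligands include the constitutive chemokines of stroma. Cxcl14, which is expressed in muscle and skin, was at 10.10, 10.00 and 9.81 in TG and 9.78, 9.84 and 9.97 in WT, a difference of 0.11 (95% interval -0.11 to 0.33) with overlapping groups. It was 0.04 without TG array 1 and 0.19 without TG array 3. Cxcl12, the Cxcr4 ligand of stromal and endothelial cells, differed by -0.11 (95% interval -0.34 to 0.13). Cxcl16, the membrane-bound ligand of Cxcr6, was at 5.63, 5.72 and 5.71 in TG and 5.71, 5.83 and 5.53 in WT, a difference of -0.0025 (95% interval -0.21 to 0.20). Cxcl13, which organizes B cell follicles, differed by 0.01 and Cxcl17, a mucosal chemokine, by -0.17.

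**Figure D3:**
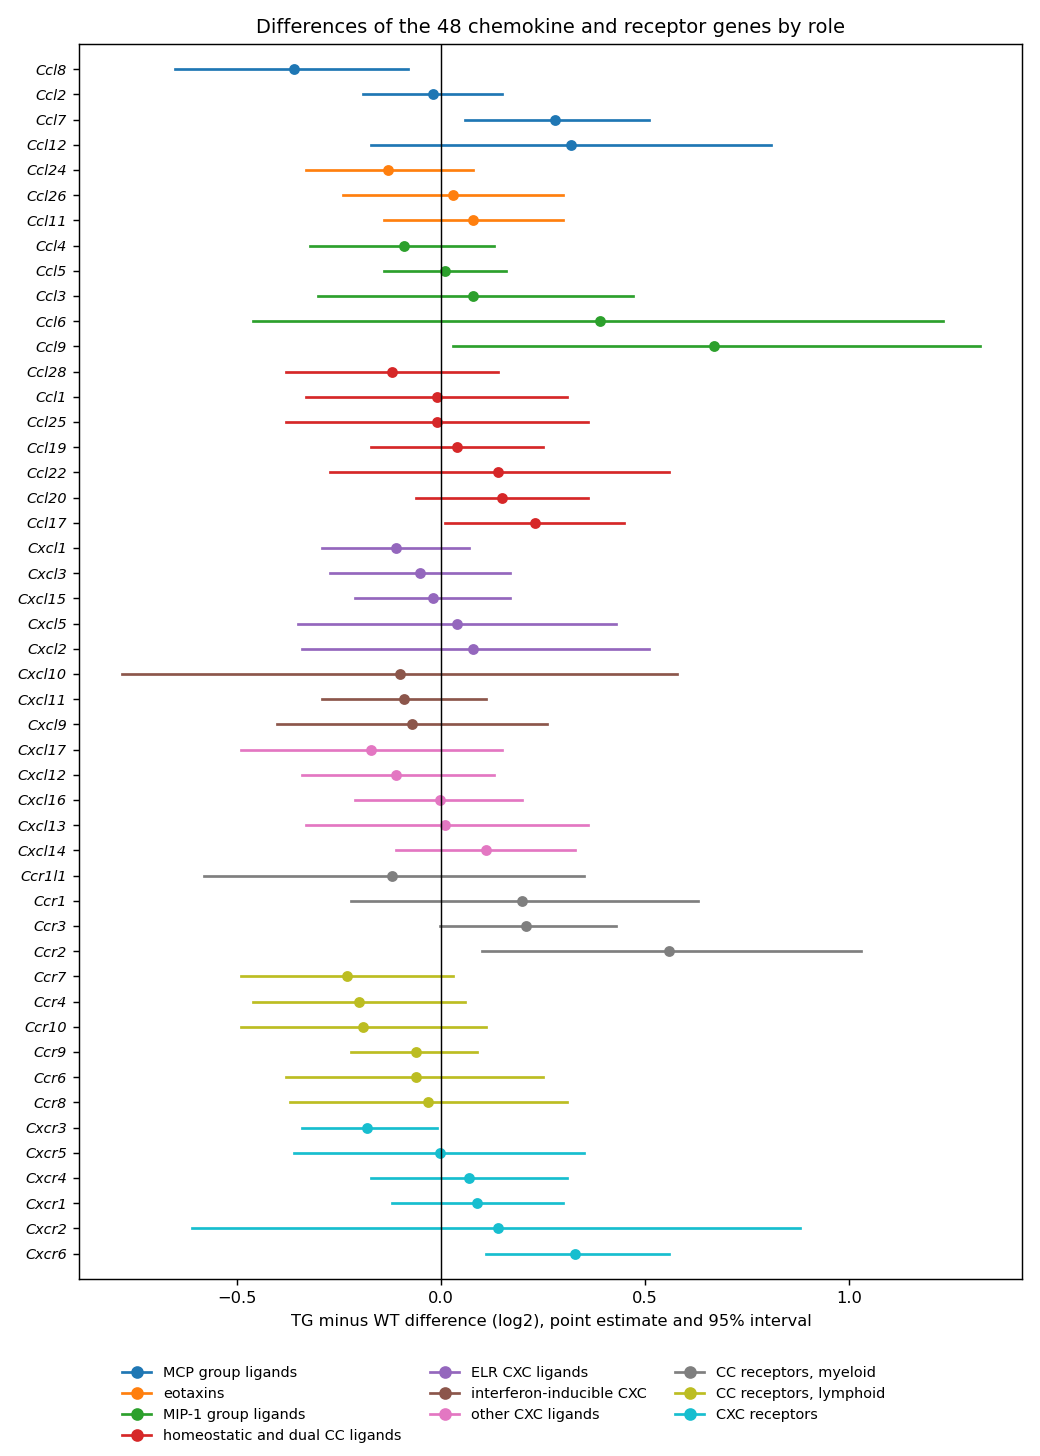
TG minus WT difference on the log2 scale (horizontal axis; point, estimate; line, 95% interval) for the 48 genes (vertical axis), coloured by role. The interval excludes 0 for Ccl8, Ccl7, Ccl9, Ccl17, Ccr2, Cxcr3 and Cxcr6, with no adjustment for the number of genes, and no gene passed an adjusted p of 0.05.

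Among the CC receptors of myeloid cells, 3 of 4 had differences above 0. Ccr2, the receptor that carries inflammatory monocytes out of bone marrow and into tissue, was at 5.82, 5.34 and 5.05 in TG and 4.60, 4.87 and 5.06 in WT. TG array 1 was the highest, and TG array 3 and WT array 3 were nearly equal. The difference was 0.56 (SE 0.20, 95% interval 0.10 to 1.03; limma, adjusted p = 0.713), or 1.48-fold, and it was 0.36 without TG array 1 and 0.74 without TG array 3. Of its ligands, Ccl7 and Ccl12 had differences above 0, and Ccl2 had a difference of -0.02, as given above. Ccr3, the eosinophil receptor of the eotaxins, was at 3.99, 4.09 and 3.79 in TG and 3.69, 3.71 and 3.83 in WT, a difference of 0.21 (SE 0.09, 95% interval -0.0015 to 0.43; limma, adjusted p = 0.738). WT array 3 alone reached into the TG range. Ccr1, a receptor of Ccl9, and the related Ccr1l1 differed by 0.20 and -0.12.

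The 6 CC receptors of lymphocytes and dendritic cells all had differences below 0, from -0.23 to -0.03 with a median of -0.126, and none reached an unadjusted p under 0.05. Ccr7, which brings T cells and dendritic cells to lymph nodes, was at 5.52, 5.64 and 5.79 in TG and 5.85, 5.72 and 6.07 in WT. TG array 3 lay above WT array 2, and the difference of -0.23 (SE 0.11, 95% interval -0.49 to 0.03) was -0.14 without WT array 3. Ccr4, found on skin-homing and regulatory T cells, was at 4.67, 4.27 and 4.37 in TG and 4.55, 4.74 and 4.63 in WT. TG array 1 was inside the WT range, and the difference of -0.20 was -0.32 without it and -0.12 without TG array 2. Ccr10, a receptor of skin and mucosal lymphocytes, was at 5.74, 5.51 and 5.86 in TG and 5.95, 6.06 and 5.66 in WT, a difference of -0.19 (95% interval -0.49 to 0.11). It was -0.09 without TG array 2, -0.10 without WT array 2 and -0.30 without WT array 3. Ccr6, the receptor of Ccl20, was at 4.39, 4.24 and 4.75 in TG and 4.39, 4.61 and 4.57 in WT. Its difference of -0.06 was 0.05 without TG array 2. Ccr8 and Ccr9 differed by -0.03 and -0.06.

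Lymphoid and dendritic cell marker genes are given beside these receptors. Over all genes tested, 11210 of 19938 differences lay below 0. The 9 T and NK cell markers measured had 6 differences below 0 and a median of -0.123, averaging 4.29 to 4.49 in TG and 4.45 to 4.61 in WT. The T cell receptor subunit gene Cd3g was lower on every TG array (-0.30, SE 0.09, limma, adjusted p = 0.676). Cd3d and Cd3e, other subunit genes of the same receptor, differed by 0.05 and 0.02, with overlapping groups. The 7 B cell markers, 6 of them below 0, averaged 4.93 on the lowest TG array and 5.04 to 5.14 in WT, with every TG array below every WT array, and 5 of the 8 dendritic cell markers were below 0 with a median of -0.060. Their part in the receptor values was not tested.

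Of the 6 CXC receptors, 4 had differences above 0, and Cxcr6 and Cxcr3 had groups apart. Cxcr6, a receptor of T and NKT cells that binds Cxcl16, was at 4.67, 4.74 and 4.64 in TG and 4.40, 4.50 and 4.16 in WT. The TG arrays lay close together (4.68 ± 0.05, SD, n = 3) and above all WT arrays (4.35 ± 0.17, SD, n = 3). Its difference of 0.33 (SE 0.10, 95% interval 0.11 to 0.56; limma, adjusted p = 0.676), or 1.26-fold, ranged from 0.24 to 0.40 when single arrays were left out. Cxcr3, the receptor of activated T cells for Cxcl9, Cxcl10 and Cxcl11, was at 5.82, 5.73 and 5.77 in TG and 5.99, 5.87 and 5.99 in WT. All TG arrays were lower, by 0.18 on average (difference -0.18, SE 0.07, 95% interval -0.34 to -0.01; limma, adjusted p = 0.738). Cxcr4, the Cxcl12 receptor, was at 7.40, 7.11 and 7.33 in TG and 7.29, 7.07 and 7.28 in WT, a difference of 0.07 (95% interval -0.17 to 0.31). Cxcr2, the neutrophil receptor, was at 4.38 on TG array 1 and between 3.12 and 3.76 on the other 5 arrays, and its difference of 0.14 had a 95% interval of -0.61 to 0.88. Cxcr1 and Cxcr5 differed by 0.09 and -0.0019.

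**Figure D4:**
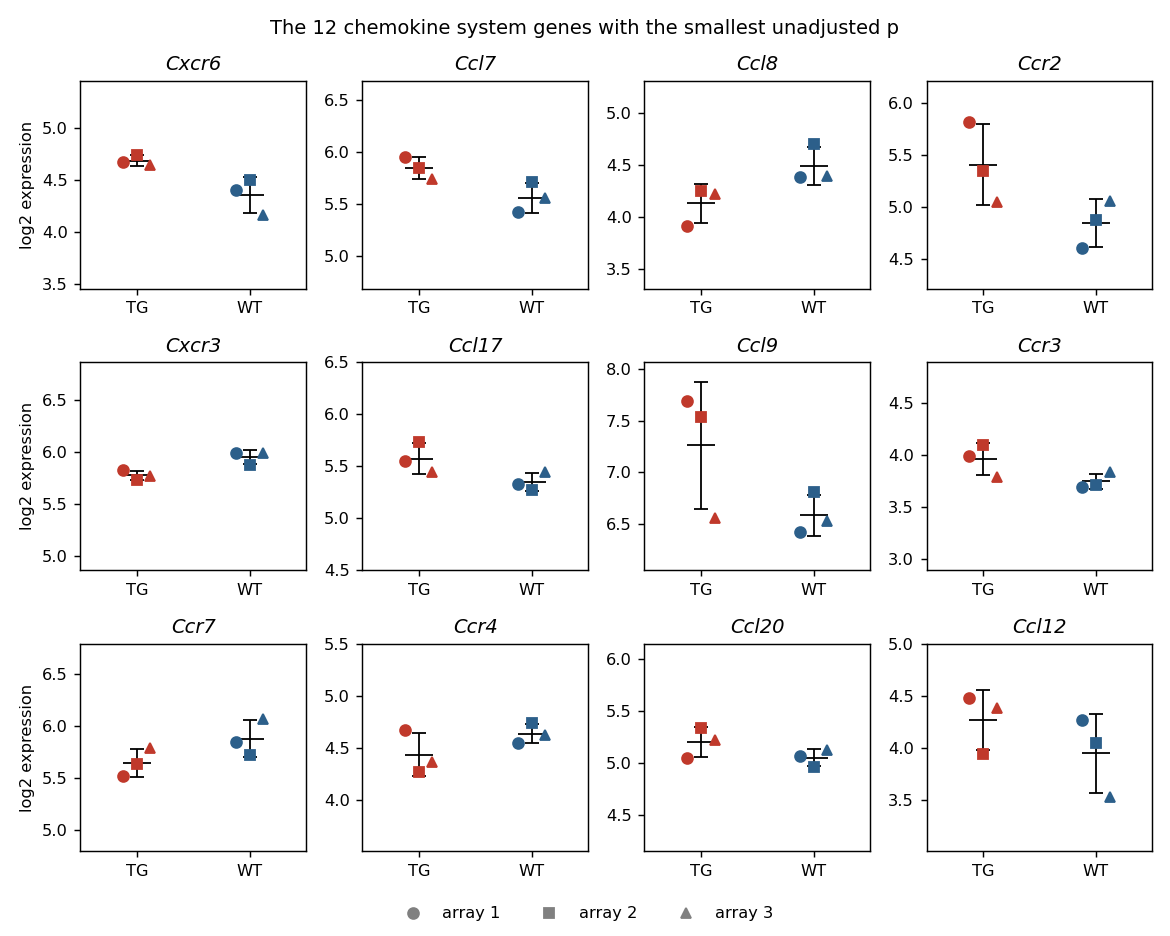
Log2 expression (vertical axis; every panel spans 2 log2 units) of the 12 genes with the smallest unadjusted p on each TG and WT array, with mean and SD over 3 arrays; array numbers name samples and pair none. Groups are apart for Cxcr6, Ccl7, Ccl8 and Cxcr3, and Ccl9 has TG arrays 1 and 2 high and TG array 3 within the WT range.

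No array stood above or below the rest throughout. TG array 1 held the highest value for 12 of the 48 genes, WT array 2 for 11, WT array 3 for 10, TG array 2 for 7, TG array 3 for 5 and WT array 1 for 3. Over all genes these shares were 13.5%, 15.5%, 25.3%, 15.4%, 16.6% and 13.7%. The lowest value was on TG array 2 for 10 genes, TG array 3 for 9, WT array 1 for 9, WT array 2 for 8, TG array 1 for 7 and WT array 3 for 5. Over all genes these shares were 17.9%, 15%, 13.8%, 19%, 22.2% and 12.1%.

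**Figure D5:**
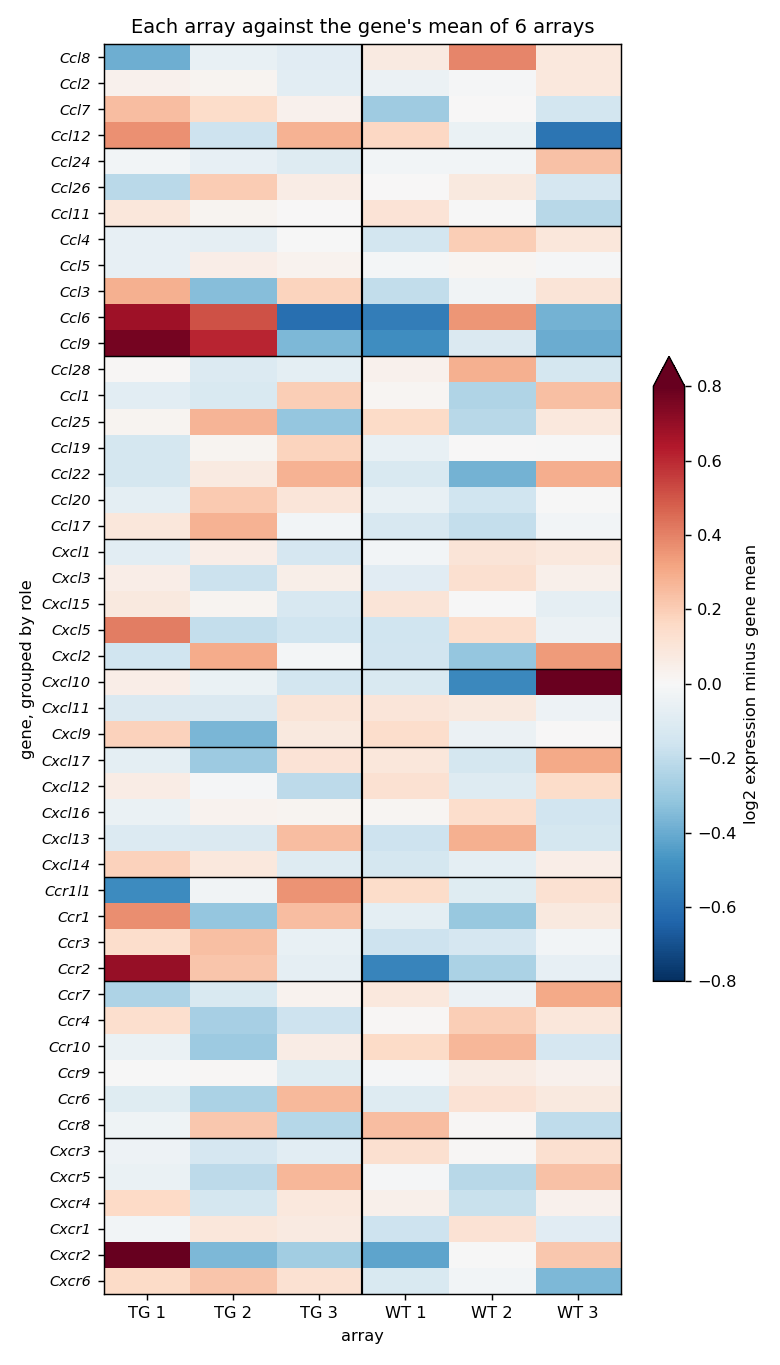
Log2 expression of each of the 48 genes (vertical axis, grouped by role) on each array (horizontal axis) minus the gene's mean over the 6 arrays; red is above and blue below that mean. Ccl9 and Ccl6 are high on TG arrays 1 and 2, Ccr2 and Cxcr2 on TG array 1 and Cxcl10 on WT array 3.

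Genes that work with this system were described from lists of related genes. Of the 14 chemokine family genes outside the symbol rule, such as atypical receptors that scavenge ligands, 0 passed an adjusted p of 0.05 and 0 an unadjusted p of 0.05 in limma, with a median of -0.012. The scavenger receptor Ackr2 differed by 0.15, fractalkine (Cx3cl1) by -0.25, lymphotactin (Xcl1) by -0.12 and platelet factor Pf4 by 0.21. Of 27 genes of receptor signalling and migration measured, 0 passed the adjusted threshold, 2 had higher and 1 had lower values in TG at an unadjusted p under 0.05 (background 1.96% and 4.79%), and the median was -0.020. Itgb2, the shared beta chain of leukocyte integrins, was at 6.42, 6.56 and 6.36 in TG and 6.10, 6.35 and 6.03 in WT (difference 0.28, SE 0.10). Rgs1, which shortens chemokine receptor signalling, differed by 0.19 (SE 0.07), and Itga4, the integrin chain that binds Vcam1, by -0.25 (SE 0.09). The adjusted p of these 3 genes was 0.713 to 0.738 in limma. The 18 NF-kappaB pathway genes and targets, many of which act upstream of chemokine transcription, had a median of 0.014 and none at an unadjusted p under 0.05, with Il6 at 0.18 (SE 0.09) and Tnf at -0.17 (SE 0.10).

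Precision was set by 3 arrays per group. The SE of a difference ran from 0.06 for Ccl5 to 0.36 for Ccl6, with a median of 0.11, against 0.09 over all genes. The 95% interval lay within 0.5 on either side of 0 for 35 of the 48 genes, and for 17809 of all 19938 genes tested. Ccl6, Cxcr2, Cxcl10 and Ccl9 had the widest intervals.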

How the data were processed

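RNA was purified from frozen tissue and hybridised after biotin labelling, per the labels' protocols. The authors deposited log2 expression values for 35557 probe sets on 6 arrays. How they corrected, summarized and normalized them is not stated in the labels, and the scale was taken from the range of values, 1.41 to 15.1. The spread of array medians was 0.0571 and that of interquartile ranges 0.0617, so the deposited values were kept. No background signal is known. Probes differ in brightness, so levels of different genes are not compared as results, although mean levels were used to choose some genes to describe and to filter in an alternative.

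Of the probe sets, 21789 had 1 platform symbol, 1621 several and 12147 none, and only the first were named. Probe sets shared by several chemokine genes (4 with 7 symbols each and 3 with 5 symbols each) are not reported. The groups were compared over 19938 genes in limma 3.58.1 (R 4.3.3; lmFit, then eBayes), two-sided, with Benjamini-Hochberg adjustment and a threshold of 0.05. The steps were tested on simulated data. Gene lists were described by counts and medians, with no test.

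Values on every array are given for the 12 genes with the smallest unadjusted p and for the gene of each role group with the highest mean. They are also given for the ligands or receptors of those 12 in a fixed list of main pairs. That list gave Ccl9 no receptor and paired Ccr8 with Ccl1 alone, so Ccr1 and Ccr8 are given by difference. The other 20 genes are given by their difference, and Cxcr2 in more detail after its values were seen. The genes, lists and naming rule were chosen with earlier results of these data known. Promoters (34 of 48 genes matched) are RefSeq windows of GRCm38.p6. Figures were drawn with matplotlib 3.10.9.

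Alternatives covered the moderation (intensity trend, robust), array weights, a filter at the median level, averaging or keeping all probe sets of a gene, scaling (quantile, common median) and leaving out each array. Array numbers follow deposit order and pair no animals.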

Additional observations from a re-analysis of the deposited data

How the results depend on the processing

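No paired analysis was possible because the labels give no replicate numbers. The count of chemokine and receptor genes past an adjusted p of 0.05 was 0 under each of the 14 alternatives run. Over all genes, the number of genes past that threshold was 1, against 7 with an intensity trend, 2 among genes above the median level, 0 with robust moderation, 0 with a common array median and 0 without each array in turn. Among genes above the median level, where 8 of the 48 genes remained to be tested, 1 had an unadjusted p under 0.05 (12.5%, against 6.88% of the genes kept), 0 had groups apart (against 12.4%) and the median difference was 0.074; fewer genes are tested there by construction. Without single arrays, the count at an unadjusted p under 0.05 ran from 2 to 9 (4.17% to 18.8%, against 5.22% to 7.85% of all genes), and between 2 and 6 of those genes were among the 7 counted with all arrays. The count with groups apart ran from 8 to 12 (16.7% to 25%, against 20.6% to 25.1%), and the median ran from -0.009 to 0.033, against -0.002 with all arrays. With every array kept, either scaling gave 6 genes with groups apart, or 12.5%. Over all genes the share was 11.9% with quantile normalization and 12.3% with a common median. At an unadjusted p under 0.05 in limma there were 5 with an intensity trend (10.4%, against 6.52%). Quantile normalization gave 6 (12.5%, against 6.39%) and array weights 8 (16.7%, against 6.72%).

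Among the described genes, the sign turned under some alternatives for Ccl25 (0.0021 with array weights, 0.01 with a common median), Ccl2 (0.01 with quantile normalization) and Cxcl16 (0.02 with quantile normalization and with a common median). Without single arrays it turned for Ccl25 (-0.15 to 0.14), Ccl2 (-0.05 to 0.02), Cxcl16 (-0.08 to 0.07), Ccl11 (-0.01 to 0.15), Ccl19 (-0.04 to 0.12), Ccl22 (-0.01 to 0.32), Cxcl9 (-0.18 to 0.10), Cxcl10 (-0.38 to 0.27), Ccr6 (-0.21 to 0.05) and Cxcr4 (-0.0024 to 0.16). The cause was not tested. Cxcr2, with its high value on TG array 1 alone, was not followed through the alternatives, so whether its sign held is not given. The remaining chemokine and receptor genes given with values on every array kept their sign under every alternative in which they were tested. Among them are Ccl7, Ccl8, Ccl9, Ccl17, Ccr2, Cxcr3 and Cxcr6, which were picked by unadjusted p in these same data. The groups of Ccl7, Ccl8, Cxcr3 and Cxcr6 were apart, so leaving out an array could not turn their sign and lends them no support.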

Other observations

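Many of these genes lie in clusters, and their order was read from the RefSeq table of assembly GRCm38.p6, to which all 48 genes matched. On chromosome 9, the receptor genes Ccr9, Cxcr6, Ccr1, Ccr1l1, Ccr3 and Ccr2 lie in that order, with at most 20 other coding genes between neighbours and differences of -0.06, 0.33, 0.20, -0.12, 0.21 and 0.56, so 4 of 6 lay above 0 with a median of 0.21. On chromosome 11, the run Ccl2, Ccl7, Ccl11, Ccl12, Ccl8 and Ccl1 had 3 of 6 above 0, and Ccl7 and Ccl8 within it had groups apart in opposite directions. The next run on that chromosome, Ccl5, Ccl9, Ccl6, Ccl3 and Ccl4, had 4 of 5 above 0. On chromosome 5, the run from Cxcl5 to Cxcl11 had 2 of 8 above 0 and a median of -0.06.

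In the RefSeq windows of 300 bases (250 before and 50 after each start), the kappaB consensus was found on either strand in 10 of the 34 matched genes, or 29.4%, against 8.46% of all 32851 windows. They were Ccl1, Ccl20, Ccl9, Ccr1, Ccr3, Ccr6, Cxcl1, Cxcl10, Cxcl2 and Cxcl3. The AP-1 motif TGANTCA was in 7 of the 34 genes (20.6%, against 7.81%) and ISRE (GAAA, any 2 bases, GAAA) in 3 (8.82%, against 3.44%). The GAS motif TTCNNNGAA, which STAT dimers bind, was in 4 genes, Ccl17, Ccr1l1, Ccr6 and Cxcl14 (11.8%, against 8.3%), and their differences were 0.23, -0.12, -0.06 and 0.11. Some matched genes have more than 1 window, and no match says only that these letters are not in the window.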
